A study of Mus musculus with 1152 samples.

Results

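The 10 genes described here encode interferon-inducible GTPases: 6 guanylate-binding proteins (GBPs; Gbp2, Gbp3, Gbp4, Gbp6, Gbp7 and Gbp9) and 4 immunity-related GTPases (IRGs; Irgm1, Irgm2, Igtp and Ifi47). They were taken by name from the 23168 genes of the expression table, and all 10 were present. Each was read in at least 21.6% of the cells analysed. Only genes that the table holds could be members, so their presence says nothing about genes lost to a filter. The cells were single lymphatic endothelial cells (LECs) of aged c57bl/6 mice. They came from the nasopharyngeal lymphatic plexus (NPLP), a meshwork of lymphatic vessels in the wall behind the nose, and had been sorted as CD31+ PDPN+ from pooled mucosa. Libraries were made with Smart-seq3, which reads full-length transcripts of cells in plate wells. The labels put every cell in 1 group and do not say which animal a cell came from. The pool was therefore 1 sample without replicates, and no p-value was computed from cells. Intervals and floors cover counting error only.

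GBPs and IRGs are GTPases that interferons induce in most cell types. They gather on the vacuoles around intracellular bacteria and parasites and on exposed microbial surfaces, where they break membranes and help cytosolic sensors to reach microbial products. Irgm1, Irgm2 and Igtp are regulatory IRGs that sit on the cell's own membranes and hold the effector IRGs in check, whereas Ifi47 is classed with the effector IRGs such as Iigp1 and Tgtp1. Interferon signals reach such genes through STAT and IRF transcription factors, which bind the gamma-activated site (GAS) and the interferon-stimulated response element (ISRE) in promoters. LECs line the vessels that drain fluid and immune cells from tissue, and in a mucosa they lie close to inhaled microbes.

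Lymphatic identity genes were read in most cells. Prox1, the lymphatic master regulator, was read in 97.1% of cells, and the 8 lymphatic identity genes were read in 87.7 to 100% of cells. Of 7 haematopoietic markers, Ptprc, which marks all leukocytes, was read in 0.915% of cells and the others in 0.457 to 12.8%. The epithelial markers Epcam and Krt18 were read in 0 cells, where a floor of 3 cells would be 0.457%, and Krt8 in 0.610%. Of the genes listed as blood endothelial, Aqp1 was read in 96.04% of cells, Plvap in 65.9% and Cd34 in 35.5%, and of those listed as fibroblast, Dcn in 30.03%. Depth ranged from 7046 to 10727631 reads per cell with a median of 148202.5.

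The members lie in 4 clusters of related genes (coordinates from GENCODE M21 on GRCm38, the assembly also called mm10). Gbp7 (chr3:142530342-142550149), Gbp3 (chr3:142560026-142573209) and Gbp2 (chr3:142620602-142638008) stand on the plus strand within 107.667 kb. Gbp9 (chr5:105077630-105139539), Gbp4 (chr5:105115767-105139586) and Gbp6 (chr5:105270702-105293698) stand on the minus strand within 216.069 kb. Irgm1 (chr11:48861968-48871683, minus strand) and Ifi47 (chr11:49076587-49096974, plus strand) bound a stretch that holds 9 protein-coding genes. Igtp (chr11:58199556-58207591) and Irgm2 (chr11:58199618-58222782), both on the plus strand, overlap each other. Gbp4, Gbp8 and Gbp9 overlap likewise in their annotation. The counting could therefore split or drop reads of these neighbours. Of the 50-base stretches in Gbp6 transcripts, 70.7% also occurred in another gene, mainly Gm43302 and Gbp10, so the level of Gbp6 is uncertain. The share was 12.7% for Gbp7, 11.8% for Igtp, 8.05% for Gbp9, 7.77% for Irgm2, 7.70% for Gbp4 and at most 3.75% for the other members.

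The promoters are shown because they hold the letters that interferon-activated factors read. RefSeq promoter windows (GRCm38.p6, 250 bases before to 50 after each transcript start) were on hand for 7 members. Gbp4, Gbp6 and Gbp9 had no entry. Positions are counted back from the first transcribed base in RefSeq, and capitals mark letters that match the ISRE core (TTTCNNTTTC or its reverse complement GAAANNGAAA) or the GAS core (TTCNNNGAA, which is its own reverse complement). Overlapping matches form 1 capital run.
Gbp7 (chr3:142530216-142530335, plus strand): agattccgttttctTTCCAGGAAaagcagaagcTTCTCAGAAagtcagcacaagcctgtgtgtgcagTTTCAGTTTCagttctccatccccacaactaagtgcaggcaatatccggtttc
Gbp3 (chr3:142559924-142560025, plus strand): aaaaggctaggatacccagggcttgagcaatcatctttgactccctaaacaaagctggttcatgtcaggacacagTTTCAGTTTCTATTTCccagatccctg
Gbp2 (chr3:142620543-142620613, plus strand): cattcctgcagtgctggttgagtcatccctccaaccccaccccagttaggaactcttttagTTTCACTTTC
Irgm1 (chr11:48871428-48871457, minus strand): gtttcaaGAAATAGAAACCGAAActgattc
Igtp (chr11:58199436-58199555, plus strand): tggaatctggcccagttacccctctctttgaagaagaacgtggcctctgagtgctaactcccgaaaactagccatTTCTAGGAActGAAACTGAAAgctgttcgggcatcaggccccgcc
Irgm2 (chr11:58214857-58214976, plus strand): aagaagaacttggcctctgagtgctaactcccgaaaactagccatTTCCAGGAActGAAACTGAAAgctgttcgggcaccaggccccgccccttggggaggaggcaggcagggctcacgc
Ifi47 (chr11:49076467-49076586, plus strand): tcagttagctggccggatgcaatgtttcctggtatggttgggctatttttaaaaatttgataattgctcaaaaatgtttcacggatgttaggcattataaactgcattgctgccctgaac

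The ISRE letters stood close to the start in 6 of the 7 members with a window. They began 59 bases before the start in Gbp2, 53 in Gbp7, 64 in Irgm2 and 34 in Igtp. Gbp3 and Irgm1 each held a pair of overlapping matches, beginning at 45 and 39 bases in Gbp3 and at 30 and 24 bases in Irgm1. The other Gbp3 window, for a later start, held no match, and neither did the whole Ifi47 window. Among all 27025 genes with a window, 3.99% held the ISRE letters. The GAS letters were present in Gbp7, Igtp and Irgm2, that is 42.9% of the members with a window, against 9.55% of all genes. GENCODE places the first base of Gbp2 61 bases upstream of the RefSeq start, so that the Gbp2 match falls within the first exon there. GENCODE begins Irgm2 near the start of Igtp, as the coordinates above show, so the printed Irgm2 stretch lies inside the GENCODE gene. Irgm1 has a longer annotated first exon too, and only the 30 bases around its matches are printed.

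In Igtp and Irgm2 the GAS match was followed after 2 bases by the ISRE match, a start-to-start spacing of 11 bases. Over all 27025 genes the same spacing, in this order, occurred in 5: Igtp, Irgm2, Tgtp1, Tgtp2 and Gm12185, all of them IRG family genes on chromosome 11. The Igtp and Irgm2 promoters are near copies of each other. Shifted by 30 bases, 87 of 90 aligned bases of the printed stretches were identical, so these cannot be counted as separate instances. Of the 50-base transcript stretches of Tgtp1 and Tgtp2, 81.2 and 86.6% occur in another gene, mainly each other. Gm12185 overlaps Tgtp1 in its annotation. The promoters of these 3 genes were not compared, so the 5 genes cannot be taken as 5 separate instances. Of the 10 genes with a window on the list of other family genes, which holds the related Mx and Gvin genes too, 7 held the ISRE letters and 5 the GAS letters. A list of type I interferon targets held the ISRE letters in 12 of 20 genes, a list of interferon-gamma-type targets in 2 of 10, and a list of vacuole-loading and autophagy partners in 1 of 12.

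**Figure D1:**
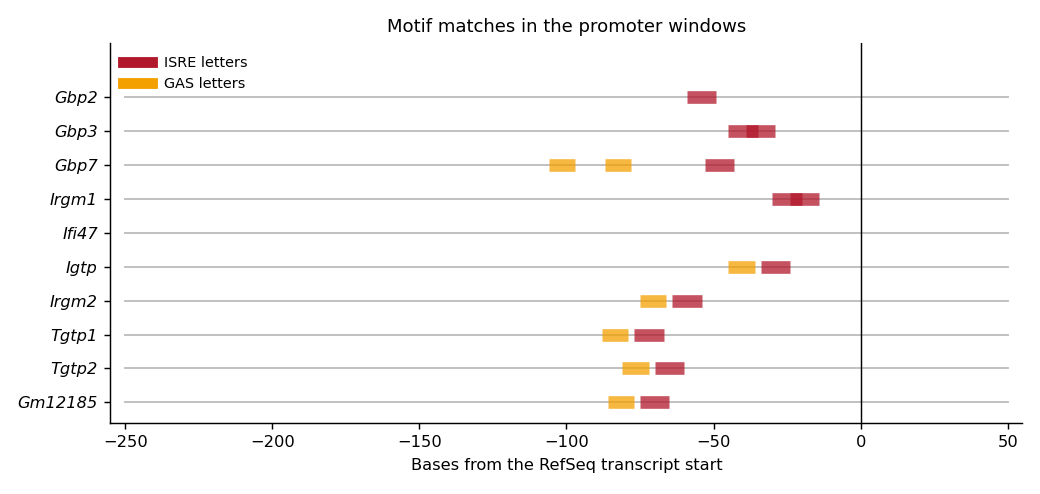
Positions of ISRE and GAS letter matches in the RefSeq promoter windows, in bases from the transcript start (x axis, 0 is the first transcribed base), for 7 members and the IRG genes Tgtp1, Tgtp2 and Gm12185. Bars mark matches. The paired GAS and ISRE bars of the last 5 rows have the same spacing of 11 bases, and the Ifi47 row is empty.

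All 10 members were read in a part of the cells only. Levels are given as reads per 10000 reads of a cell, and a gene was called detected at any value above 0. In each of the 10 the lowest level over all cells was 0, and for 6 of them (Gbp3, Igtp, Irgm2, Gbp4, Gbp6 and Ifi47) the median was 0 as well.

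Among the regulatory IRGs, Irgm1 was the most widely read member, in 60.2% of all cells (exact 95% interval 56.4 to 63.98%). In those cells its level ran from 0.00246 to 17.9 per 10000 with a median of 1.32. Igtp was read in 40.9% (37.1 to 44.7%), at 0.00158 to 38.4 per 10000 with a median of 0.721. Irgm2 was read in 34.6% (30.96 to 38.4%), at 0.00149 to 7.59 per 10000 with a median of 0.538. Irgm1 was thus detected more often than its relatives, and the intervals of the 3 genes followed each other with an overlap only between Igtp and Irgm2. Ifi47, of the effector class, was the least often read member, in 21.6% of cells (18.6 to 24.998%), at up to 10.5 per 10000.

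Among the GBPs, Gbp2, which is known to load onto Toxoplasma vacuoles, and Gbp7 were each read in 53.4% of cells (49.5 to 57.2%). Their medians in those cells were 0.980 and 0.576 per 10000, and their highest values 131.5 and 43.9 per 10000. Gbp9 was read in 50.5% (46.6 to 54.4%), with a median of 0.740 and a highest value of 30.4 per 10000. Gbp3 was read in 46.8% (42.9 to 50.7%), with a median of 0.997 and a highest value of 13.4 per 10000. These 4 GBPs formed an upper tier whose intervals overlapped from each gene to the next. Gbp4 was read in 33.2% (29.6 to 36.98%) and Gbp6 in 31.2% (27.7 to 34.95%), with medians of 0.746 and 0.541 per 10000. In the order of all 10 shares, neighbours had overlapping intervals everywhere except between Gbp6 and Ifi47.

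The number of reads in a cell bears on such shares. Over the cells, the number of members detected had a Spearman's rho of 0.48 with the number of genes detected and 0.39 with the number of reads. Reads were therefore drawn at random, 20000 from every cell that had as many (thinned cells). The shares then ran from 13.9% (11.2 to 17.03%) for Ifi47 to 42.8% (38.7 to 46.97%) for Irgm1, and Gbp2 stood at 36.6% (32.6 to 40.7%). Gbp9 and Gbp7 changed places, as did Gbp4 and Gbp6, within overlapping intervals. After thinning the number of members detected had a rho of 0.096 with the number of genes and -0.097 with the number of reads.

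**Figure D2:**
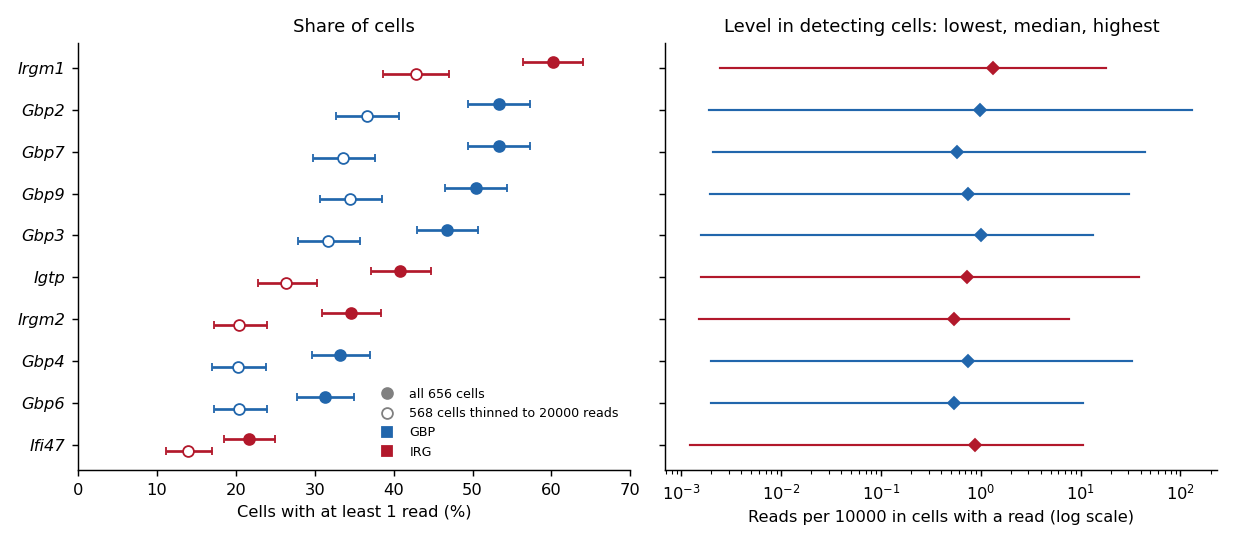
Left, the share of cells with at least 1 read of each member (x axis, percent) over all cells (filled) and over cells thinned to 20000 reads (open), with exact 95% intervals. Right, the lowest, median (diamond) and highest level in cells with a read, in reads per 10000 on a log axis. The share of Irgm1 is highest and that of Ifi47 lowest in both sets of cells. The levels at right are not corrected for transcript length.

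Full-length reads favour long transcripts, so mean levels were set against each other per kilobase of merged exons. On that scale the mean level over all cells was highest for Gbp2 (0.440 reads per 10000 per kilobase), followed by Igtp (0.322), Gbp3 (0.259) and Irgm1 (0.208). Gbp9 (0.149), Gbp7 (0.136), Ifi47 (0.112) and Irgm2 (0.1105) came next, and Gbp4 (0.0791) and Gbp6 (0.0588) were lowest. The highest was 7.48 times the lowest. With the longest transcript in place of merged exons Gbp2 and Gbp6 kept these places, but Gbp4 (0.131) stood above Irgm2 (0.116) and Irgm1 (0.315) came close to Igtp. Igtp stood above Irgm1 per length although fewer cells held it; the merged exons of Igtp sum to 2022 bases and those of Irgm1 to 5810. Without the cell that had the highest summed level, Gbp2 stood at 0.361 and was still the highest.

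The summed level of the 10 members was uneven across cells. It had a median of 4.102 and a highest value of 231.7 per 10000, with the next highest at 100.7. The 10% of cells with the most held 44.1% of the summed level. The member with the most reads, not corrected for transcript length, was not the same in the cells at the top. It was Gbp2 in the first (131.5 per 10000), Gbp7 in the second (43.9), Gbp9 in the third (30.4), and Gbp4 in the next 2 (21.8 and 25.1). In the first cell all 10 members were read, with Gbp4 at 32.7, Irgm1 at 17.9 and Igtp at 14.6 per 10000. It had 6269 detected genes, against a median of 3940.5 over all cells, and 1 haematopoietic marker was read in it. The cell belonged to cluster 3 and to a block of cell numbers with a median depth of 2042788 reads (both described below).

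Most cells held a few members rather than none or all. Over all cells the median was 4 members, 19 cells (2.90%, 1.75 to 4.49%) held none, and 12 cells (1.83%, 0.949 to 3.17%) held all 10. After thinning the median was 2, with 59 cells (10.4%, 8.002 to 13.2%) at none and 17.8% of cells at 5 or more. Both families were read together in 53.3% of thinned cells, GBPs without IRGs in 27.3% and IRGs without GBPs in 8.98%. The members include more GBPs than IRGs, so these shares do not compare the families gene for gene.

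The members varied together from cell to cell, though weakly. In all 45 pairs Spearman's rho across cells was above 0, from 0.11 for Gbp7 and Igtp to 0.26 for Gbp3 and Gbp6, with a median of 0.19. All points share the cells' depth and the pool. The members had a median rho of 0.030 with the 9656 other genes read in 10% of cells or more. A rho of at least 0.1 was reached by 45 of 45 pairs of members, against 5.42% of the 96560 pairs of a member with another gene. In thinned cells the 45 pairs stayed above 0, from 0.087 to 0.28 with a median of 0.17.

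The families were not set apart from each other by these values. The median rho was 0.19 within the GBPs (15 pairs), 0.21 within the IRGs (6 pairs) and 0.18 between a GBP and an IRG (24 pairs). Pairs from the same gene cluster, whose reads could be split between neighbours, had a median of 0.21 (8 pairs) and pairs from different clusters 0.18 (37 pairs). The summed GBP level had a rho of 0.28 with the summed IRG level, and 0.32 after thinning. Detection overlapped in the same loose way. Irgm1 and Igtp were read together in 47.3% of the Irgm1 cells and 69.8% of the Igtp cells. Gbp3 and Gbp6 were read together in 42.02% of the Gbp3 cells and 62.9% of the Gbp6 cells.

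**Figure D3:**
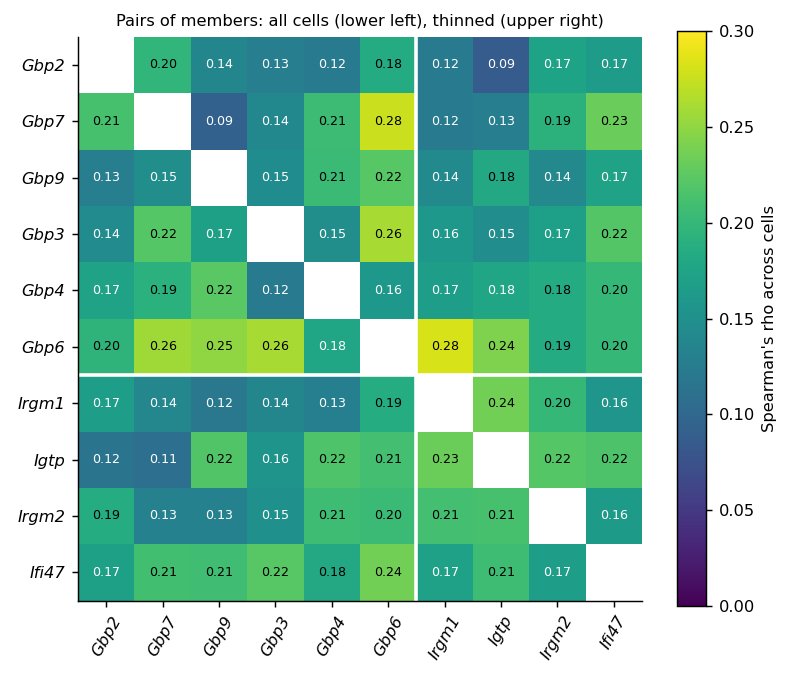
Spearman's rho across cells for each pair of members, with all cells in the lower left and thinned cells in the upper right, GBPs first and IRGs after the white lines. All 45 pairs are above 0 in both triangles, with medians of 0.19 and 0.17.

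The genes whose level across cells was most like the summed level of the members were sought among the 5270 genes that 30% of cells or more held. The closest 10 by rho were Isg15 (0.41), Irf7 (0.37), Ifi44 (0.33), Rnf213 (0.32), Usp18 (0.32), Ifit1 (0.31), Parp14 (0.31), Rtp4 (0.31), Zbp1 (0.30) and B2m (0.30). Isg15 is a ubiquitin-like modifier that Usp18 removes, Irf7 is an interferon-inducible transcription factor, Zbp1 senses nucleic acids, and B2m is the light chain of MHC class I. Isg15 itself was read in 71.8% of cells. The genes with the lowest rho included Rpl9 (-0.15) and Rpl36 (-0.15), which encode ribosomal proteins, and the ribosomal pseudogene Rps12-ps3 (-0.16). After thinning, Rps12-ps3 stood at -0.044, Rpl9 at -0.16 and Rpl36 at -0.10, while Isg15 stayed at 0.40 and Irf7 at 0.39.

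The other genes of the pathway were counted by their rho with the summed member level, among those read in 10% of cells or more. A rho of at least 0.2 was reached by 40 of 9656 genes (0.414%). Of the other GBP, IRG and related family genes, 4 of 10 reached it, with a median rho of 0.17. They were Iigp1 (0.28), Tgtp2 (0.28), Tgtp1 (0.25) and Gm4951 (0.24). Iigp1, an effector IRG that attacks parasite vacuoles, was read in 50.9% of cells, Tgtp1 in 34.9% and Tgtp2 in 27.7%, and over 80% of the 50-base stretches of each Tgtp gene occur in another gene. Gbp5, a GBP linked to inflammasomes, was read in 13.3% of cells and had a rho of 0.15. Irgq, a divergent IRG relative, had a rho of -0.021. Gbp2b, Irgc1 and Mx1 were not analysed here.

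Of the receptors, kinases and transcription factors that signal to these genes, 4 of 15 reached a rho of 0.2, among them Irf7 (0.37), Irf9 (0.23) and Stat2 (0.23). Stat2 and Irf9 are parts of the complex that binds the ISRE. Irf1, which the GBPs need for full induction in many cells, was read in 87.7% of cells and had a rho of 0.14. The 4 receptor chains had rhos close to 0. Ifngr1 was read in 71.8% of cells with a rho of 0.0072, Ifngr2 in 24.1% with -0.031, Ifnar1 in 48.3% with 0.018 and Ifnar2 in 84.6% with 0.061. Ciita, the regulator of MHC class II, was read in 1.22% of cells and Socs1, an inhibitor of the pathway, in 4.88%. The ligands Ifng and Ifnb1 were not analysed here.

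Of the type I interferon targets, 14 of 24 reached a rho of 0.2, with a median of 0.23. Ifi27 was the exception in direction, at -0.037, and it was read in 90.7% of cells. Ifitm3, read in 100% of cells at a mean natural log level of 4.195, had a rho of 0.15. Of the interferon-gamma-type targets, 2 of 9 reached it, B2m (0.30) and the immunoproteasome subunit Psmb8 (0.23), with a median of 0.15. The chemokine Cxcl10 was read in 2.44% of cells and Ido1, a tryptophan-degrading enzyme, in 1.07%. These lists were chosen with earlier results of the same cells known, so their counts are a description.

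The genes for proteins that bring GBPs and IRGs to vacuoles or act after them had rhos near 0 for the most part. Of the autophagy conjugation genes and other vacuole partners, 1 of 15 reached a rho of 0.2, Rnf213, a ubiquitin ligase of bacterial surfaces, and the median was 0.0074. Atg5, Atg7, Atg12 and Atg16l1, which conjugate the LC3 and GABARAP proteins that place IRGs on vacuoles, had rhos of -0.040 to 0.041 and were read in 28.7 to 35.1% of cells. Of the cytosolic sensing effectors, 0 of 3 reached 0.2. Casp4, which GBPs help to sense lipopolysaccharide, was read in 46.3% of cells with a rho of 0.068, Gsdmd in 45.6% with 0.044 and Pycard in 45.9% with 0.029. Casp1 was read in 2.29% of cells, and Aim2 in 0 cells (floor 0.457%).

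**Figure D4:**
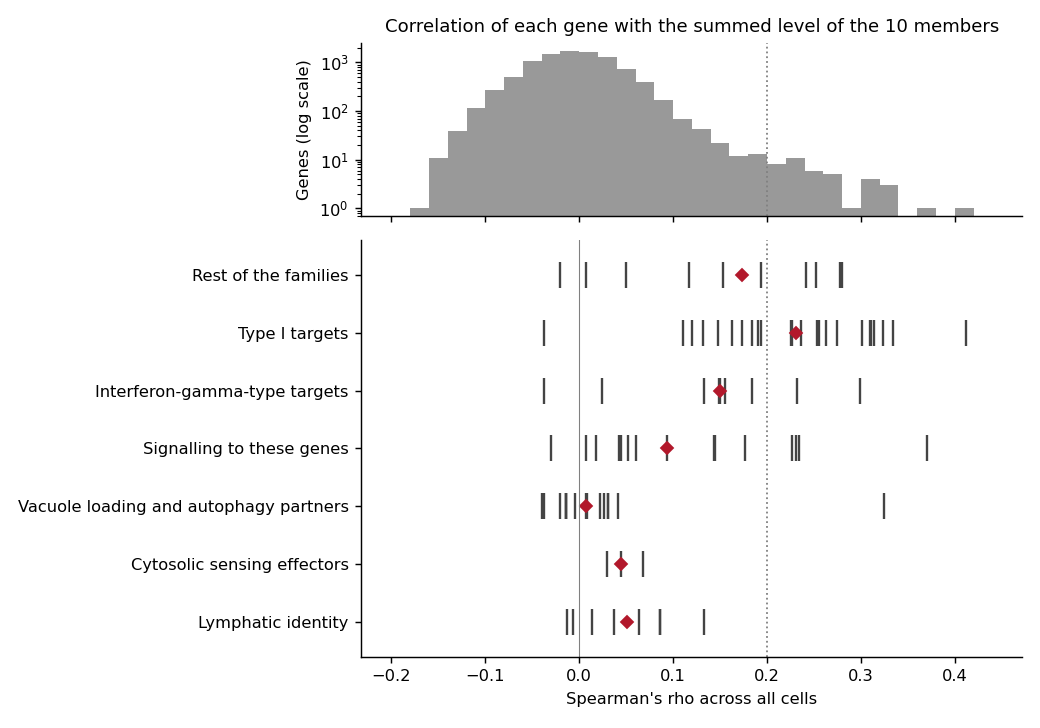
Spearman's rho across cells of each gene with the summed level of the 10 members (x axis). Above, the 9656 other genes read in 10% of cells or more as a histogram with a log count axis. Below, each gene of the lists as a tick with the list's median as a diamond. The dotted line marks 0.2, which 14 of 24 type I targets and 1 of 15 vacuole partners reached.

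Single members differed in how closely they followed the interferon lists. The mean natural log level of the 26 type I targets had a rho of 0.58 with the mean over the members, and that of the 11 interferon-gamma-type targets 0.35. The first list is longer and so averages over more genes. For single members the rho with the type I mean ran from 0.19 for Gbp4 and 0.21 for Gbp2 to 0.40 for Gbp3. The rho with the interferon-gamma-type mean ran from 0.079 for Gbp4 to 0.26 for Ifi47. In thinned cells the lowest rho with the type I mean was 0.19, for Gbp2. With the interferon-gamma-type mean Gbp4 then stood at 0.16, and both Irgm1 and Ifi47 at 0.30. With Irf1, Irgm1 had a rho of 0.20 and Gbp9 one of -0.048.

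The genes most alike differed too. For Gbp3 they were Ifit3, Ifit1 and Irf7, with a highest rho of 0.32, and for Gbp7 the first 2 were Usp18 and Irf7. For Gbp9 they were the MHC class I genes H2-K1, H2-Q6 and H2-T22, with a highest rho of 0.22. MHC class I genes share sequence, so that reads of H2-Q6 and H2-T22 are uncertain.

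The cells were clustered with the 10 members and the listed interferon genes left out of the variable genes, so the clusters were not defined by them. The 6 clusters held 26.4, 24.5, 16.9, 14.8, 11.6 and 5.79% of the cells. Cluster 2 raised 5 of 5 markers of the Ptx3+ capillary class and is called Ptx3+ capillary-like. The others are named by their leading genes: Ahsg and Spp1 (cluster 1), Tppp3 and Fndc1 (cluster 3), Ptn and Anxa8 (cluster 4), Fxyd2 and Gdf15 (cluster 5), and Alkbh8 and Zbtb49 (cluster 6). Shares by cluster are over thinned cells, and a member was counted as higher or lower where its share differed at least 1.5 times from that in all other cells. All 6251 other genes read in 10 to 50% of thinned cells were counted in the same way.

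The 4 IRG members had lower shares in cluster 3, the cells led by Tppp3 and Fndc1. There 5 of 10 members were lower, against 9.41% of all genes, and these were the 4 IRGs and Gbp4. This count holds for thinned cells only. Without thinning, these members were still read less often in cluster 3, but all fell short of the 1.5-fold limit. Their shares there were then 46.8% for Irgm1, 32.4% for Igtp, 29.7% for Irgm2, 16.2% for Ifi47 and 30.6% for Gbp4. Over all cells they were 60.2, 40.9, 34.6, 21.6 and 33.2%. Ifi47 was read in 4 of 92 thinned cells of that cluster (4.35%, 1.197 to 10.8%), against 22.5% (15.8 to 30.3%) in cluster 2. Irgm1 was read in 29.3% (20.3 to 39.8%), against 55.9% (43.3 to 67.9%) in cluster 5. Igtp stood at 15.2% (8.58 to 24.2%), against 32.1% (22.2 to 43.4%) in cluster 4, and Irgm2 at 11.96% (6.12 to 20.4%), against 29.4% (18.98 to 41.7%) in cluster 5. Each was set here against the cluster with its highest share, and the intervals of the last 2 pairs overlapped. The cluster 3 interval of Irgm1 also overlapped those of clusters 1, 2, 4 and 6, and that of Ifi47 those of clusters 1, 4, 5 and 6. Iigp1, an IRG that is no member, was read in 27.2% of thinned cells of cluster 3, which was 0.814 times its share in the other cells. Tgtp1, also no member, was read in 13.04%, which was 0.540 times its share in the other cells. Of the 50-base stretches of Tgtp1, 81.2% also occur in another gene, so its level is uncertain.

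The GBPs of the chromosome 3 cluster did not share this pattern. In cluster 3, Gbp2 was read in 38.04% of thinned cells (28.1 to 48.8%), Gbp3 in 30.4% (21.3 to 40.9%) and Gbp7 in 29.3% (20.3 to 39.8%), which were 1.05, 0.953 and 0.852 times their shares in the other cells. The median of the summed IRG level was 0.249 per 10000 in cluster 3, against 1.43 to 2.32 in clusters 1, 2, 4 and 5 and 0.189 in cluster 6. The median of the summed GBP level was 2.76 in cluster 3, 1.54 to 3.005 in clusters 1, 2, 4 and 5 and 2.19 in cluster 6. By these medians a low IRG level beside a kept GBP level was therefore not particular to cluster 3. The IRG ratios to the other cells had a median of 0.537 and the GBP ratios one of 0.902. Ifngr1 was read in 71.7% of thinned cells of cluster 3 and Isg15 in 46.7%.

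Gbp4 and Gbp9, neighbours on chromosome 5, were read most often in the Ptx3+ capillary-like cells. Gbp9 was read in 47.1% of thinned cells there (38.6 to 55.8%), against 23 of 92 (16.6 to 35.1%) in cluster 3. Gbp4 was read in 31.9% (24.2 to 40.4%), against 11.96% (6.12 to 20.4%) in cluster 3. Cluster 3 had the lowest share of both genes. The cluster 2 interval of Gbp9 overlapped those of clusters 4, 5 and 6. That of Gbp4 overlapped those of clusters 1, 4, 5 and 6. With Ifi47, Gbp4 and Gbp9 were the 3 of 10 members counted as higher in cluster 2. There 6.97% of all genes were higher and 6.19% lower, and 0 members were lower. Gbp2, Gbp3 and Gbp7 also had their highest shares of thinned cells in cluster 2, at 42.8, 37.7 and 39.9%, but below the 1.5-fold limit. That place depended on the measure. Their mean natural log levels were highest in cluster 3 (0.489, 0.428 and 0.379), against 0.487, 0.421 and 0.350 in cluster 2. Without thinning, the shares of Gbp3 (50.5%) and Gbp7 (60.8%) were highest in cluster 4. Gbp4 and Gbp9 overlap in their annotation, and whether reads were split between them was not tested.

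In the other clusters the counts were small or near those of all genes. In cluster 1, 0 members were higher and 0 lower, against 2.98 and 7.85% of all genes. In cluster 4, 1 of 10 members was lower, against 4.21% of all genes lower and 14.3% higher. It was Gbp6, read in 12.3% of the thinned cells there. In cluster 5, 1 of 10 members, Irgm2, was higher, against 9.13% of all genes higher and 10.5% lower. In cluster 6, whose cells had a median of 2622.5 detected genes, 8 of 10 members were lower, as were 74.3% of all genes, while 0.464% of all genes were higher. In cluster 3, 7.23% of all genes were higher and 0 members were. Across the 5 clusters of at least 50 cells, 5 of 10 members had a share at least 2 times as high in the highest as in the lowest cluster, against 30.3% of all genes. The median of that ratio was 2.01 over the members and 1.70 over all genes.

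**Figure D5:**
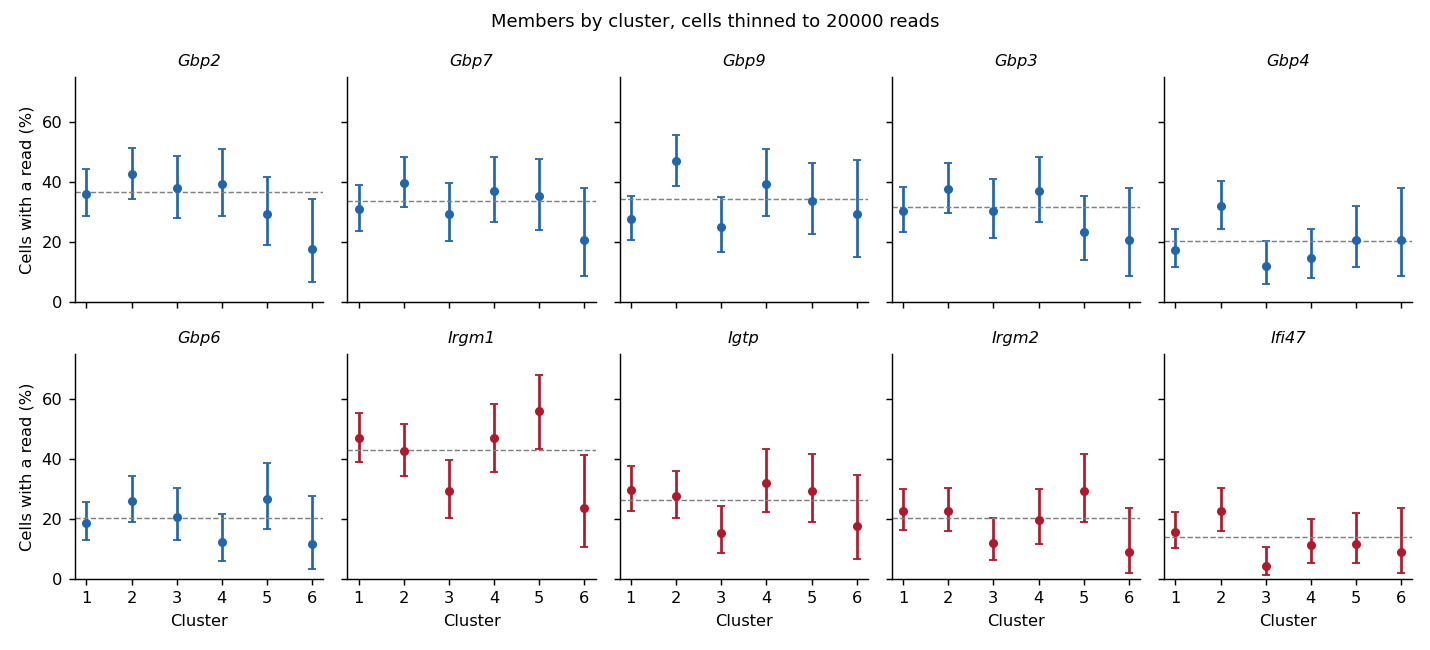
Share of thinned cells with a read of each member (y axis, percent) in the 6 clusters (x axis), with exact 95% intervals and the share over all thinned cells as a dashed line. All 4 IRGs (red) lie below their dashed line in cluster 3, while Gbp9 and Gbp4, like Gbp2, Gbp3, Gbp7 and Ifi47, are highest in cluster 2.

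Cell numbers in the labels run in 12 blocks of 96, the size of a plate, although no label says that a block was a plate. The blocks held 18 to 83 cells, and their median depth ran from 52583 to 2450280 reads. The share of thinned cells with Irgm1 ran from 31.2 to 56.1% over the blocks and that with Igtp from 13.5 to 50%. Mean natural log levels of Igtp ran from 0.11 to 0.74, and the highest value was in a block of 20 cells. The part of depth in these ranges was not tested. Haematopoietic markers were read in 28.8% of cells. The median number of members was 4 in these cells and 4 in the others, and the median summed level was 4.28 and 4.01 per 10000.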

How the data were processed

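The authors aligned reads to mm10 with STAR, counted them per gene with featureCounts (Subread), removed cells with few genes or many mitochondrial reads and normalized in Seurat 4.1.0, per the labels and methods. Aligner settings and the handling of reads that map to several genes were not given in the sources used here. The deposited values are natural log values of 1 plus reads per 10000 (each cell summed to 10000 on the linear scale, whereas the methods name log2), and whole reads were recovered from them. Reads, not molecules, were counted, and 79.9% of values above 0 were even, as when both mates of a fragment are counted. Of 1152 labelled cells, 656 were analysed here, as 1 pooled sample, so no test was possible.

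Shares have exact Clopper-Pearson 95% intervals (scipy 1.17.1). Cells were thinned without replacement to 20000 reads, which left out 88. Clustering used Seurat 5.3.0 in R 4.3.3 (2000 variable genes, 15 principal components, resolution 0.8), with regression of total reads, mitochondrial share, dissociation and ribosomal scores. A marker was raised at 1.5 times the level of other cells with 0.1 per 10000 added. No doublet caller was run. Genes were named by list, and as the 10 most and 5 least alike, of which some are not reported here. Members and lists were chosen with earlier results of these data known. Scripts were tested on simulated data.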

Additional observations from a re-analysis of the deposited data

How the results depend on the processing

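The median share of cells with a member was 43.8%, and 29.05% in cells thinned to 20000 reads, 48.8% with the cells in the lowest 25% by gene number left out, and 12.3% where detection meant a natural log value above 1. Leaving out cells with a haematopoietic marker gave 41.97%. The shares of 10 of 10 members left their main intervals with thinning and with that threshold, and of 8 of 10 without the cells low in genes. The median of the members' mean natural log levels was 0.31, against 0.54 for the log of the linear mean and 0.92 with a pseudocount of 0.1 per 10000 (counted from the value of a cell without reads), and from 0.29 to 0.32 in the other settings. The median rho between members of 0.19 ran from 0.16 with the number of detected genes regressed to 0.24 for Pearson's correlation, and all 45 pairs were above 0 in each of the 7 settings. The median range of a member over the clusters, 0.17 on the natural log scale, ran from 0.18 to 0.25. The ratio of levels per kilobase was 5.33 with the longest transcript in place of merged exons. At least 9 of the 10 genes most like the members returned in each of 4 settings. The share of members' promoters with the ISRE letters was 85.7% with and without the bases after the start.

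Chosen after seeing the data, other clusterings, another random draw of reads and leaving out the 2 deepest blocks gave 4 to 6 members lower in the cluster nearest to cluster 3, with all 4 IRGs below the other cells each time. Irgm1 missed the 1.5-fold limit with 3000 variable genes (0.719 times the other cells), and Gbp9 was lower in 4 of 6. The same alternatives gave 2 or 3 members higher in that nearest to cluster 2, where Gbp4 and Ifi47 were higher each time and Gbp9 was not in 4 of 6. The shares of all genes given above are for the main clustering only, so these counts have none beside them. In the other clusterings the nearest clusters held 91.9 to 93.7% of the cells of cluster 3 and 78.9 to 97.5% of those of cluster 2. The other alternatives kept the main clusters. All of these alternatives counted shares over thinned cells, so they do not cover the shares without thinning. The alternatives are therefore not independent of the main result. Leaving out the cell with the highest summed level was also chosen after seeing the data. Precision is limited by the small clusters and by the lack of animals as replicates. No paired analysis was possible because there was 1 group.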
